A study of Mus musculus with 6 samples.

Results

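The enzymes that build triglyceride were followed in liver RNA-seq of mice that lack SHMT2 in hepatocytes. The group holds 10 genes, chosen by their symbols for their place in the pathway, out of 49671 gene entries in the count table: *Gpam*, *Gpat4*, *Agpat2*, *Agpat3*, *Lpin1*, *Lpin2*, *Lpin3*, *Dgat1*, *Dgat2* and *Mogat1*. All 10 were matched to an Ensembl identifier and all 10 passed the filter on low counts. Livers came from 3 SHMT2 fl/fl mice, labelled WT, which carry the floxed allele without Cre, and from 3 SHMT2 HKO mice, labelled KO, in which an Albumin-Cre transgene deletes the floxed part of the gene in hepatocytes. The labels do not name the floxed allele of the WT mice; that reading comes from the study's methods. All 6 were males on the C57BL/6J background, were put on the AMLN diet (rich in fat, fructose and cholesterol) at 4 weeks of age and stayed on it for 18 weeks, up to 22 weeks of age, and the study's protocol has a fast before harvest. Other liver cells keep SHMT2 in this model, and no chow-fed liver was sequenced in the samples used here.

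Hepatocytes make triglyceride from glycerol 3-phosphate in 4 steps. Glycerol-3-phosphate acyltransferases (GPATs, here *Gpam* on mitochondria and *Gpat4* on the endoplasmic reticulum) add the first fatty acid, 1-acylglycerol-3-phosphate acyltransferases (AGPATs, here *Agpat2* and *Agpat3*) add the next and give phosphatidic acid, lipins (*Lpin1*, *Lpin2*, *Lpin3*) remove its phosphate to give diacylglycerol, and diacylglycerol acyltransferases (*Dgat1*, *Dgat2*) add the last fatty acid. *Mogat1* encodes a monoacylglycerol acyltransferase, which reaches diacylglycerol from monoacylglycerol and so bypasses the first steps. Lipin 1 also acts in the nucleus as a coactivator of fatty acid oxidation genes, and diacylglycerol that is not acylated feeds phospholipid synthesis.

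The targeted gene, *Shmt2* (ENSMUSG00000025403), was low in every SHMT2 HKO liver. Across SHMT2 fl/fl mice it stood at 94.6, 109 and 94.0 CPM, which is the count scaled to a common library size after TMM (edgeR's correction for library composition), against 24.9, 28.3 and 19.3 CPM across SHMT2 HKO mice, and values of 3 mice are given here in the order of mouse 1, 2 and 3 (log2 fold change -2.04, standard error 0.16, adjusted p = 0.000639 by edgeR, that is its quasi-likelihood test adjusted by Benjamini-Hochberg across 16089 genes). Counts on genes ran from 23090837 to 34089722 per library. The 2 genotypes needed unequal scaling, with TMM factors of 1.13 to 1.21 in SHMT2 fl/fl and 0.802 to 0.984 in SHMT2 HKO libraries, and this bears on every value below.

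Of the 10 enzymes, 5 rose in SHMT2 HKO livers after TMM scaling: *Mogat1* (3.89-fold), *Gpam* (1.87-fold), *Dgat2* (1.81-fold), *Agpat2* (1.66-fold) and *Agpat3* (1.40-fold). At least 1 gene of the GPAT, AGPAT, DGAT and MGAT steps was among them and no lipin. The background was 12.5% of all genes tested higher in SHMT2 HKO livers at the same threshold (adjusted p-value under 0.05) and 16.5% lower. No enzyme was called lower by edgeR or by DESeq2, while 1, *Lpin3*, was lower at an unadjusted p-value under 0.05 and was called lower by limma-voom. The median log2 fold change of the 10 was 0.61, and that of all genes tested was 0.03. Every SHMT2 HKO mouse lay above every SHMT2 fl/fl mouse for 5 enzymes (*Agpat2*, *Agpat3*, *Dgat1*, *Dgat2*, *Mogat1*) and below for *Lpin3*, where 21.9% and 25.0% of all genes did so.

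These calls changed when a mouse was left out and with how the libraries were made comparable. The number called higher was 0, 1 and 0 without SHMT2 fl/fl mouse 1, 2 or 3, and 6, 1 and 3 without SHMT2 HKO mouse 1, 2 or 3. Over all genes it was 936, 861 and 805, and 1973, 1129 and 2521, against 2012 with all mice. Calls thus fell over all genes too without any SHMT2 fl/fl mouse. The log2 fold change in those 3 fits was 0.83 to 0.99 for *Gpam* and 0.71 to 0.75 for *Agpat2*. It was 0.42 to 0.55 for *Agpat3*, 0.75 to 0.95 for *Dgat2* and 1.825 to 2.064 for *Mogat1*. Scaled to library size alone, the median of all genes shifted by -0.42 on the log2 scale. None of the 10 was then called higher (edgeR, with 2 higher at an unadjusted p-value under 0.05), where 539 of 16089 genes were. Scaled to the ERCC RNAs, which are synthetic transcripts, the median shifted by -0.72. Again none was called higher (1 at an unadjusted p-value under 0.05), where 107 of 16089 genes were. With so few genes called higher, 0 of 10 does not set these enzymes apart from other genes. A log2 fold change above 0 was kept by 4 of the 10 with ERCC scaling. The ERCC RNAs held 1.42% to 1.84% of counts in SHMT2 fl/fl libraries. They held 2.75%, 2.31% and 1.35% in SHMT2 HKO mice 1, 2 and 3, so mouse 3 lay below every SHMT2 fl/fl library. Relative to the median gene, 9 of the 10 enzymes stood higher under each of the 5 scalings tried, and the exception each time was *Lpin3*. A scaling moves all genes by nearly the same amount, so a gene's place relative to the median is nearly fixed. The 5 scalings therefore count as 1 result here and do not make up for the lost calls. *Mogat1* ranked above 98.8% to 98.9% of genes, *Gpam* above 93.6% to 95.3% and *Dgat2* above 92.9% to 93.1% under these scalings. The statements below on higher and lower refer to TMM scaling, and the share of all calls that were higher was 43.1% with it, 9.87% without it and 3.73% with ERCC scaling.

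**Figure D1:**
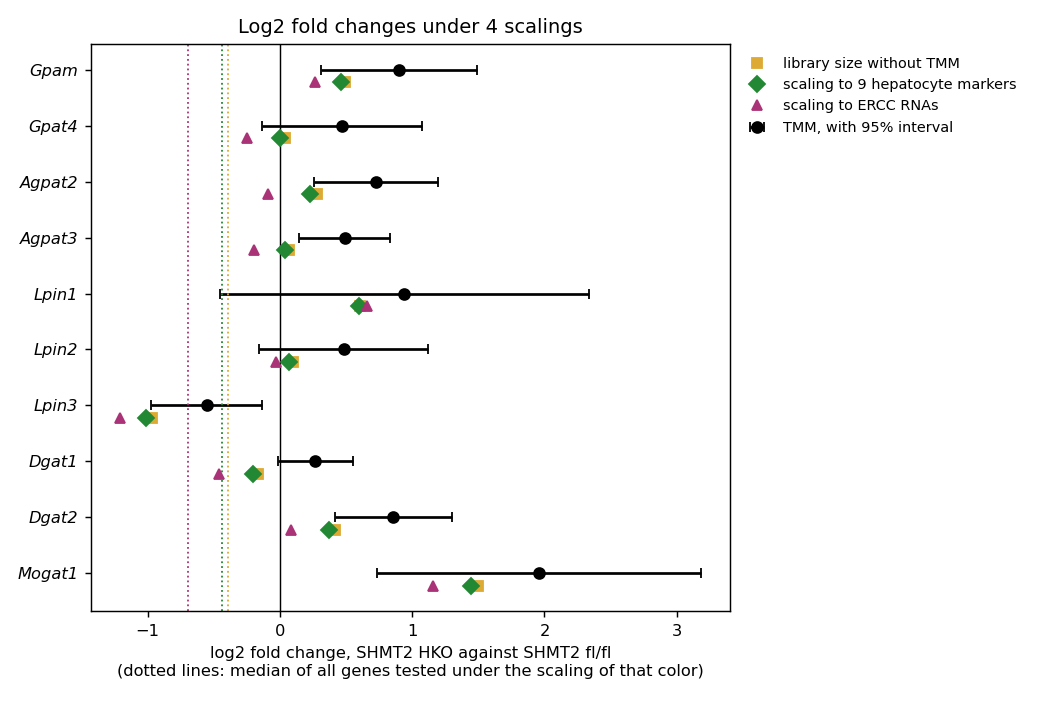
Log2 fold change (SHMT2 HKO against SHMT2 fl/fl) of each enzyme under 4 scalings. Black points with bars are TMM values with 95% intervals, colored symbols are the other scalings, and a dotted line marks the median of all genes under the scaling of its color. Points move left together with the median line, and *Gpat4*, *Agpat2*, *Agpat3*, *Lpin2* and *Dgat1* fall below 0 with ERCC scaling, *Dgat1* with library size and hepatocyte marker scaling too.

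Promoter sequence was in the RefSeq table used here (GRCm38.p6) for 7 of the 10 genes, in 11 windows of 250 bases before a transcription start. The window at the outermost start of *Gpam* and those of *Agpat2*, which rose like *Gpam*, and *Lpin1*, which differed most between mice of a group next to *Mogat1*, are shown 5′ to 3′ along the gene, each ending just before its start. They lie at chr19:55127239-55127488, chr2:26604418-26604667 and chr12:16610967-16611216, all on the minus strand.
Gpam: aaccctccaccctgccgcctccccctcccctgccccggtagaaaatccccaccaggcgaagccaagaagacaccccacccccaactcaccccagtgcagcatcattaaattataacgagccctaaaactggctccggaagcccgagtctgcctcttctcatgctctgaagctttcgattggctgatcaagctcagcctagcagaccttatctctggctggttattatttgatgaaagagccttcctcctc
Agpat2: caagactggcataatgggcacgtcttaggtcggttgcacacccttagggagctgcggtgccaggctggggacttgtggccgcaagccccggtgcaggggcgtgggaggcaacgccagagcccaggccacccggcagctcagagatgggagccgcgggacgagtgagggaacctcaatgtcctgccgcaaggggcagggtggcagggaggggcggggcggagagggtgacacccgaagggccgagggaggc
Lpin1: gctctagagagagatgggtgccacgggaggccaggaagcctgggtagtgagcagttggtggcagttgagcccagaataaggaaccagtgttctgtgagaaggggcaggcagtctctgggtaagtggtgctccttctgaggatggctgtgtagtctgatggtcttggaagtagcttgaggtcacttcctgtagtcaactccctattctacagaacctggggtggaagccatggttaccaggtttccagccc

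The windows were searched on both strands for an E-box (CACGTG), a sterol response element (TCACNCCAC), the DR1 repeat of PPAR receptors and the DR4 repeat of LXR (both as perfect repeats). No match is in the 3 windows printed, which is why they hold no capitals. Of the 11 windows, 1, of *Lpin2*, held an E-box, where 6.02% of all 32851 windows did. The other motifs stood in 1.05%, 0.0335% and 0.0152% of all windows and in none of the 11. A match or its lack describes these letters in this window and says nothing of binding.

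In the GPAT step, *Gpam* rose and *Gpat4* did not pass the test. *Gpam* (ENSMUSG00000024978, GRCm38 chromosome 19, 55067268 to 55127238, minus strand) encodes the mitochondrial GPAT1, which commits acyl-CoA to glycerolipid synthesis in place of oxidation. It had 36.5, 40.0 and 46.0 CPM across SHMT2 fl/fl mice against 45.8, 95.4 and 87.4 CPM across SHMT2 HKO mice. SHMT2 HKO mouse 1 thus lay inside the SHMT2 fl/fl range, just under SHMT2 fl/fl mouse 3, and the other SHMT2 HKO mice were far above it. The log2 fold change was 0.90 (95% interval 0.31 to 1.49, standard error 0.26, adjusted p = 0.0323 by edgeR). The call held in 1 of 6 fits that left out a mouse, that without SHMT2 HKO mouse 1 (adjusted p = 0.000932), and the adjusted p-value was 0.0722 to 0.112 without any SHMT2 fl/fl mouse in turn and 0.105 without SHMT2 HKO mouse 2 or 3. The call also ended with library size alone (log2 fold change 0.49, adjusted p = 0.198 by edgeR), with ERCC scaling (0.27, 0.687) and without a filter on low counts (0.0761).

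*Gpat4* (ENSMUSG00000031545, chromosome 8, 23171265 to 23208346, minus strand) encodes the main microsomal GPAT. Its level was 173, 373 and 274 CPM across SHMT2 fl/fl mice against 374, 433 and 327 CPM across SHMT2 HKO mice. The genotypes overlapped, since SHMT2 fl/fl mouse 2 stood above SHMT2 HKO mouse 3, and the spread among SHMT2 fl/fl mice (SD 99.9 CPM, n = 3) was the wider. The log2 fold change of 0.47 had an interval from -0.14 to 1.08 (adjusted p = 0.219 by edgeR), and was -0.25 with ERCC scaling.

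In the AGPAT step both enzymes rose. *Agpat2* (ENSMUSG00000026922, chromosome 2, 26593057 to 26604417, minus strand), whose loss causes congenital lipodystrophy with fatty liver, had 176, 184 and 188 CPM across SHMT2 fl/fl mice against 292, 394 and 223 CPM across SHMT2 HKO mice. The SHMT2 fl/fl mice were nearly alike and each SHMT2 HKO mouse lay above them. This gave a log2 fold change of 0.73 (95% interval 0.26 to 1.20, adjusted p = 0.03 by edgeR) and 0.28 with library size alone and -0.09 with ERCC scaling, where it was not called. The call also ended without any SHMT2 fl/fl mouse in turn (adjusted p = 0.0937 to 0.101) and without SHMT2 HKO mouse 2 (0.0744).

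*Agpat3* (ENSMUSG00000001211, chromosome 10, 78269178 to 78352489, minus strand) had 228, 261 and 274 CPM across SHMT2 fl/fl mice against 311, 389 and 371 CPM across SHMT2 HKO mice. Its encoded enzyme favors polyunsaturated acyl chains and serves phospholipid as well as triglyceride synthesis. The genotypes did not overlap, and the log2 fold change of 0.49 was the smallest of those called (95% interval 0.14 to 0.83, adjusted p = 0.0414 by edgeR). It was -0.19 with ERCC scaling, and the call held only without SHMT2 HKO mouse 1 (adjusted p = 0.0211) among the 6 fits that left out a mouse (up to 0.148). The call also ended with upper-quartile scaling (0.40, adjusted p = 0.0718 by edgeR), with library size alone (0.07, 0.74), without a filter on low counts (0.0659) and with at least 10 counts in every sample (0.0543). In exons, *Agpat2* shares 64 bases with *Egfl7* and *Agpat3* 16 with *Gm40709*, both on the opposite strand, and the sources used here do not state whether counting used the strand.

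In the lipin step no gene passed the test, and the 3 paralogs did not move alike. *Lpin1* (ENSMUSG00000020593, chromosome 12, 16535669 to 16610966, minus strand), which responds to fasting and glucocorticoids, had 68.7, 172 and 76.5 CPM across SHMT2 fl/fl mice against 102, 117 and 389 CPM across SHMT2 HKO mice. A single mouse in each group stood far above the others, SHMT2 fl/fl mouse 2 and SHMT2 HKO mouse 3, so the log2 fold change of 0.94 had an interval from -0.45 to 2.33 (adjusted p = 0.276 by edgeR). Without SHMT2 HKO mouse 3 it was 0.03, and without SHMT2 fl/fl mouse 2 it was 1.48.

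*Lpin2* (ENSMUSG00000024052, chromosome 17, 71182560 to 71249817, plus strand) is the lipin with the highest level in these livers. It had 266, 329 and 253 CPM across SHMT2 fl/fl mice against 249, 370 and 564 CPM across SHMT2 HKO mice, so that the highest mouse of each group was the same as for *Lpin1* and the genotypes overlapped. Its log2 fold change was 0.48 (95% interval -0.16 to 1.12, adjusted p = 0.231 by edgeR), -0.03 with ERCC scaling, 0.11 without SHMT2 HKO mouse 3, and 0.73 without SHMT2 HKO mouse 1, where it was called (adjusted p = 0.0307).

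*Lpin3* (ENSMUSG00000027412, chromosome 2, 160880670 to 160906002, plus strand), which is scarce in liver and more prominent in gut, was the sole member with a negative log2 fold change. It had 11.6, 11.4 and 10.1 CPM across SHMT2 fl/fl mice against 5.90, 8.20 and 8.42 CPM across SHMT2 HKO mice, with every SHMT2 HKO mouse below every SHMT2 fl/fl mouse. The log2 fold change of -0.55 (95% interval -0.97 to -0.14) just missed the threshold (adjusted p = 0.0518 by edgeR). The threshold was passed with limma-voom (0.0451), with library size alone (0.0152), with upper-quartile scaling (0.0312), with hepatocyte marker scaling (0.0215), with genes of at least 10 counts in every sample (0.0405) and without SHMT2 HKO mouse 3 (0.0362), and the log2 fold change was negative under each alternative, between -1.21 and -0.40.

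In the DGAT step *Dgat2* rose and *Dgat1* did not pass the test. *Dgat2* (ENSMUSG00000030747, chromosome 7, 99153658 to 99182719, minus strand), which in hepatocytes esterifies newly made fatty acids in particular, had 391, 520 and 478 CPM across SHMT2 fl/fl mice against 832, 996 and 688 CPM across SHMT2 HKO mice. Every SHMT2 HKO mouse exceeded every SHMT2 fl/fl mouse, and the mean went from 463 ± 65.8 to 839 ± 154 CPM (SD, n = 3 mice each). The log2 fold change was 0.86 (95% interval 0.41 to 1.30, standard error 0.19, adjusted p = 0.0136 by edgeR), and it was 0.09 with ERCC scaling and 0.42 with library size alone, where it was not called. *Dgat2* kept its call in 4 of 6 fits that left out a mouse, more than any other member, and lost it without SHMT2 fl/fl mouse 1 (adjusted p = 0.0618) or SHMT2 fl/fl mouse 3 (0.0574).

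*Dgat1* (ENSMUSG00000022555, chromosome 15, 76502015 to 76511953, minus strand), which esterifies mainly fatty acids taken up or recycled, had 28.7, 29.7 and 28.7 CPM across SHMT2 fl/fl mice against 31.8, 40.0 and 33.0 CPM across SHMT2 HKO mice. The groups did not overlap, but the shift was small, with a log2 fold change of 0.27 (95% interval -0.01 to 0.55, adjusted p = 0.139 by edgeR). Its sign turned with library size alone (-0.16), with hepatocyte marker scaling (-0.21) and with ERCC scaling (-0.46).

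*Mogat1* (ENSMUSG00000012187, chromosome 1, 78510991 to 78538173, plus strand), a PPARγ target of steatotic liver, showed the largest fold change of the 10 from the lowest level. It drew 91, 65 and 66 counts across SHMT2 fl/fl mice against 82, 314 and 141 across SHMT2 HKO mice, which came to 2.23, 2.45 and 1.72 CPM against 3.48, 15.9 and 5.55 CPM. The genotypes did not overlap after scaling, although the count of SHMT2 HKO mouse 1 itself was within the SHMT2 fl/fl range, and SHMT2 HKO mouse 2 stood far above the rest. The log2 fold change was 1.96 (95% interval 0.74 to 3.18, adjusted p = 0.0276 by edgeR), 1.09 without SHMT2 HKO mouse 2 (adjusted p = 0.0506) and 1.16 with ERCC scaling (adjusted p = 0.174). The call also ended without any SHMT2 fl/fl mouse in turn (0.0841 to 0.101), with limma-voom (0.0507), with library size alone (0.0502) and without a filter on low counts (0.125). *Mogat1* shares 200 exonic bases with *BC035947* on the opposite strand.

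**Figure D2:**
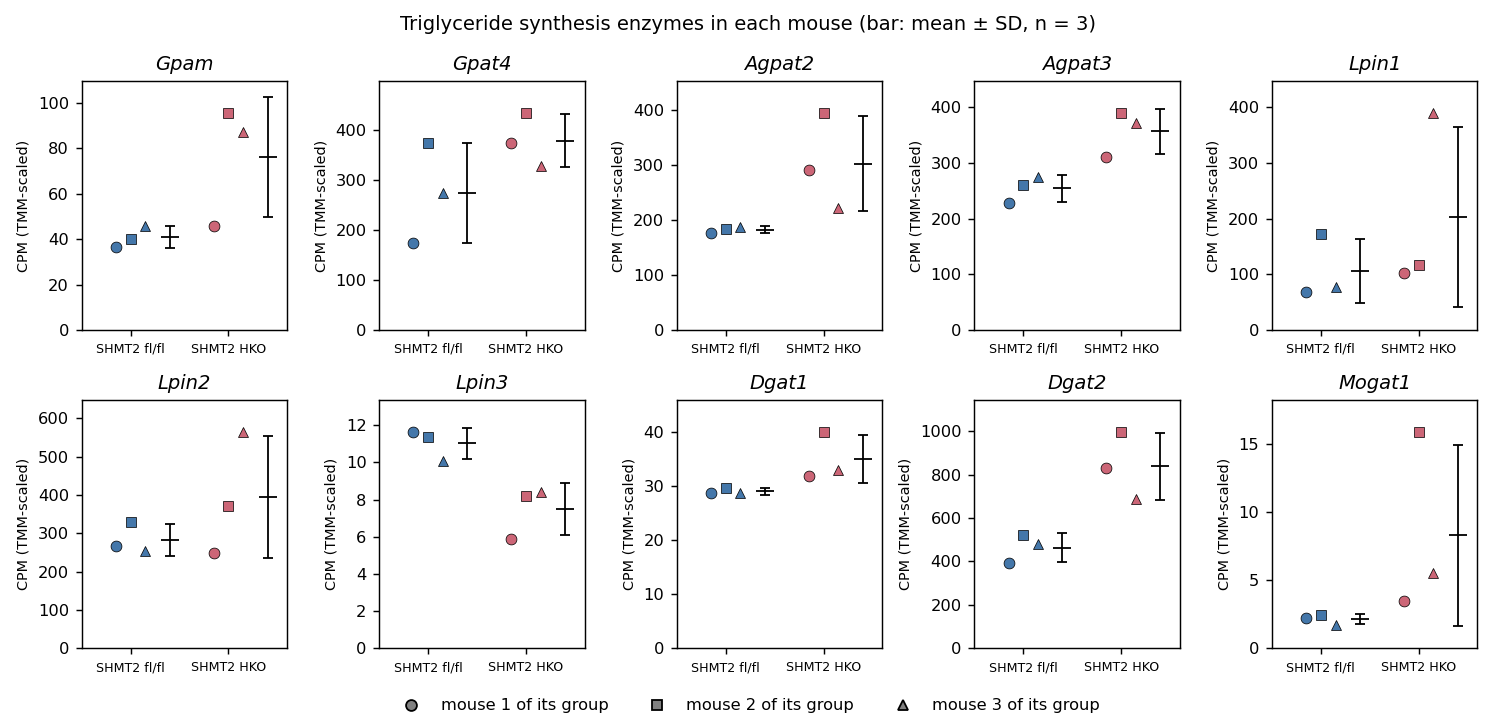
TMM-scaled CPM of the 10 enzymes in each of the 6 mice, 1 panel per gene with an axis from 0. Symbols mark mouse 1, 2 or 3 of a group and bars give the mean ± SD (n = 3); SHMT2 HKO mouse 2 is the highest of its group in 7 panels and SHMT2 HKO mouse 3 in *Lpin1*, *Lpin2* and *Lpin3*.

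Among SHMT2 HKO mice, mouse 2 was the highest for 7 of the 10 genes (*Gpam*, *Gpat4*, *Agpat2*, *Agpat3*, *Dgat1*, *Dgat2*, *Mogat1*) and mouse 3 for the 3 lipins, while mouse 1 was the lowest for 7. The highest exceeded the lowest SHMT2 HKO mouse 4.57-fold for *Mogat1*, 3.82-fold for *Lpin1*, 2.26-fold for *Lpin2* and 2.08-fold for *Gpam*, and 1.25-fold to 1.77-fold for the other 6. Among SHMT2 fl/fl mice, mouse 2 was the highest for 6 genes and mouse 1 the lowest for 7, with the widest spread in *Lpin1* (2.5-fold) and *Gpat4* (2.15-fold). The mice of a group share genotype and diet, so this order describes 6 animals and carries no test.

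Levels of different genes were compared as CPM per kb of exon. *Dgat2* was the most abundant enzyme in both groups, at 150 ± 21.4 CPM per kb in SHMT2 fl/fl livers and 272 ± 50.0 in those of SHMT2 HKO mice (SD, n = 3), and *Agpat2* followed with 85.8 ± 2.75 and 142 ± 40.4. The other levels in SHMT2 fl/fl livers were 40.9 for *Gpat4*, 32.6 for *Agpat3*, 23.1 for *Lpin2*, 10.9 for *Lpin1*, 9.50 for *Dgat1*, 6.13 for *Gpam*, 2.99 for *Lpin3* and 1.37 for *Mogat1*. In this order neighbors overlapped for 2 of 9 pairs, *Gpat4* with *Agpat3* and *Lpin1* with *Dgat1*, and the other 7 pairs were apart in all 3 mice. In SHMT2 HKO livers *Gpam* and *Dgat1* (both 11.4) were level and *Mogat1* (5.33) passed *Lpin3* (2.03), but neighbors now overlapped for 6 of 9 pairs, these included. With the length of the principal transcript in place of all exons, *Lpin2* moved up from the fifth to the third place in both groups.

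**Figure D3:**
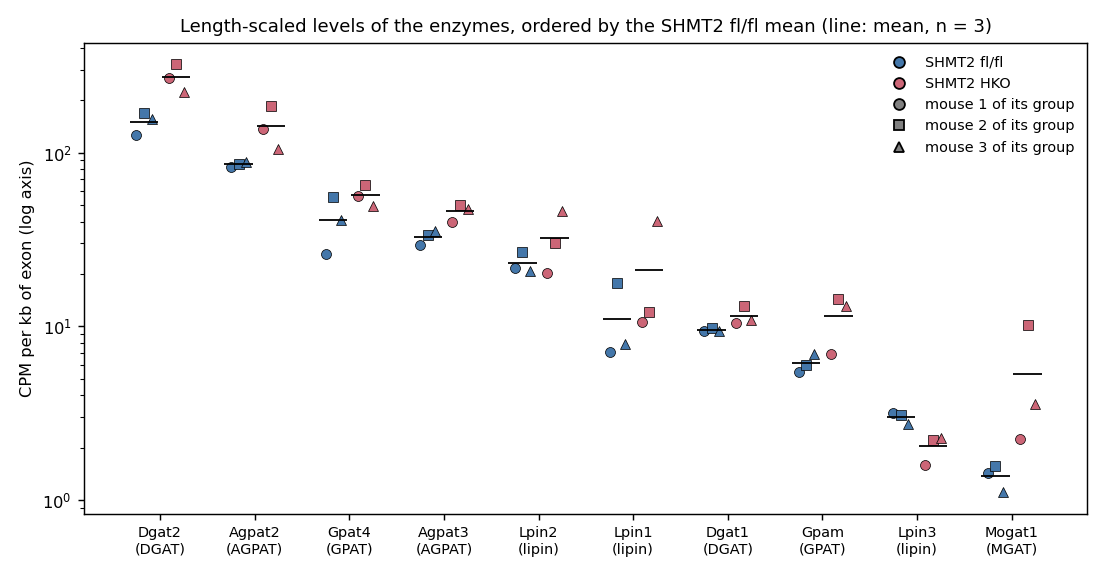
CPM per kb of exon (log axis) of the 10 enzymes in each mouse, ordered by the SHMT2 fl/fl mean. Blue marks SHMT2 fl/fl and red SHMT2 HKO mice, and lines mark means of 3 mice; *Dgat2* and *Agpat2* are apart from the other enzymes, and levels span from 1.37 to 150 CPM per kb in SHMT2 fl/fl livers.

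Within a step, the share of each paralog could be read without any scaling between mice. *Dgat2* made up 94.0% ± 0.757 of the length-scaled DGAT level in SHMT2 fl/fl livers and 95.9% ± 0.473 in those of SHMT2 HKO mice (SD, n = 3), and *Agpat2* 72.5% ± 1.27 and 75.0% ± 5.49 of the AGPAT level. *Gpat4* held 86.1% ± 3.93 and 83.3% ± 5.24 of the GPAT level. Of the lipin level, *Lpin2* held 63.4% ± 6.22 and 60.8% ± 8.06, *Lpin1* 28.2% ± 7.92 and 35.0% ± 9.37, and *Lpin3* 8.33% ± 1.74 and 4.15% ± 1.37. The same paralog thus held the largest share of each step in both genotypes, although GPAT and AGPAT genes outside the 10 were not counted in these shares. In the lipin step of SHMT2 HKO mouse 3 the lead was small, with 52.0% for *Lpin2* and 45.4% for *Lpin1*.

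The ratio of *Dgat2* to *Dgat1* counts was higher and that of *Lpin3* to *Lpin2* lower in each SHMT2 HKO mouse than in each SHMT2 fl/fl mouse. On the log2 scale the *Dgat2* to *Dgat1* ratio was 3.77, 4.13 and 4.06 across SHMT2 fl/fl mice against 4.71, 4.64 and 4.38 across SHMT2 HKO mice, a difference of 0.59 (p = 0.1 in a two-sided exact permutation test, and 3 mice against 3 allow none smaller). The *Lpin3* to *Lpin2* ratio was -4.51, -4.85 and -4.65 against -5.39, -5.49 and -6.06, a difference of -0.98 (exact permutation test, p = 0.1). With 7 ratios tested, both had an adjusted p of 0.35, so the design could not carry them past 0.05. Left-out mice moved these differences to 0.48 to 0.69 and to -1.11 to -0.77.

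The genotypes overlapped in the other 5 ratios. The log2 difference was 0.31 for *Gpam* to *Gpat4* (exact permutation test, p = 0.5), 0.20 for *Agpat2* to *Agpat3* (p = 0.4), 0.38 for *Lpin1* to *Lpin2* (p = 0.5), 0.82 for *Mogat1* to *Dgat2* (p = 0.3) and 0.14 for *Gpam* to *Agpat2* (p = 0.8). In the *Gpam* to *Gpat4* ratio SHMT2 fl/fl mouse 2 (-3.22) and SHMT2 HKO mouse 1 (-3.03) lay together at the low end.

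**Figure D4:**
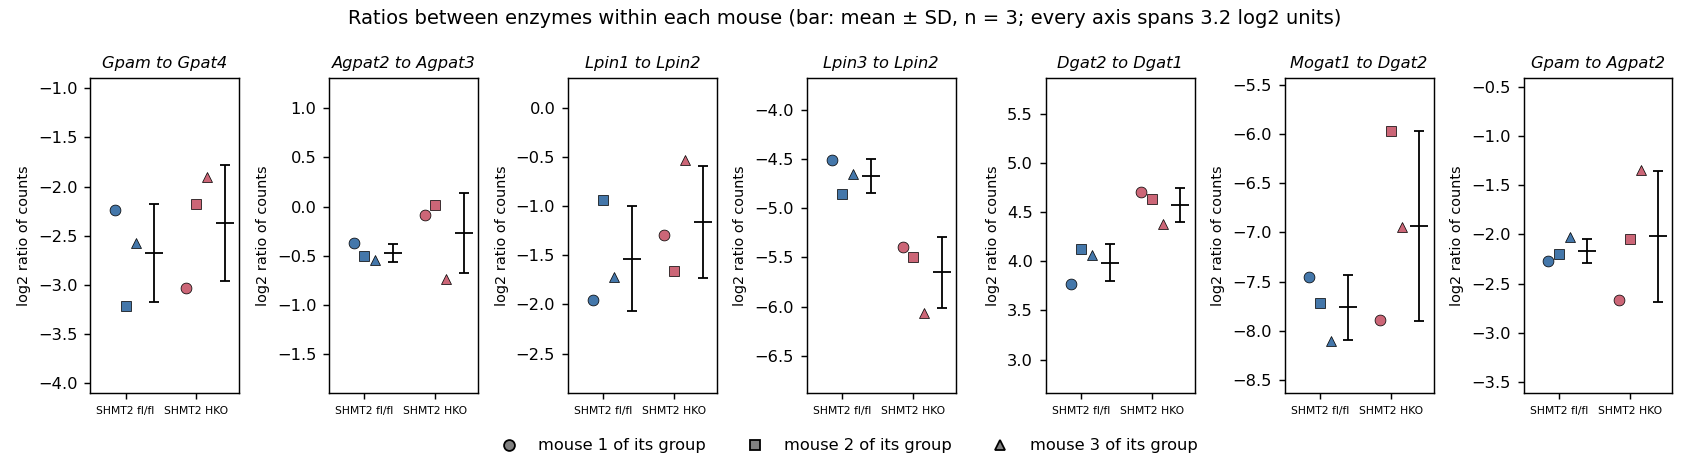
Log2 ratio of counts between 2 enzymes within each mouse, for 7 pairs, with every axis spanning the same range of log2 units. Symbols mark mice, bars the mean ± SD (n = 3); the groups are apart for *Lpin3* to *Lpin2* and *Dgat2* to *Dgat1*.

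Genes next to these 10 in the pathway were read from lists compiled by hand. Of 10 other enzymes of the pathway, 1 rose and 3 fell, where 12.5% of all genes rose and 16.5% fell, and their median log2 fold change was -0.31. The number that fell was 1 without SHMT2 fl/fl mouse 2 or 3 or SHMT2 HKO mouse 2. Calls lower over all genes were then 1686, 1621 and 1894, against 2651 with all mice. *Agpat4*, an AGPAT best known from brain, fell from 6.08 ± 0.948 to 2.32 ± 0.488 CPM (SD, n = 3; log2 fold change -1.39, adjusted p = 0.00505 by edgeR), and it stayed called in all 6 fits that left out a mouse. The lipid phosphate phosphatases *Plpp2* (-0.65) and *Plpp1* (-0.51) fell and *Plpp3* rose (0.70, and 0.01 with ERCC scaling), while the call ended without 4 of the 6 mice in turn for *Plpp1* and for *Plpp2*. *Agpat1* (-0.34, adjusted p = 0.14), *Gpat3* (-0.29, 0.4), *Mogat2* (-0.34, 0.605), *Gpat2* (0.18, 0.674) and *Agpat5* (0.12, 0.611) did not pass edgeR's test. The isozymes called higher therefore included neither *Gpat3* nor *Mogat2*, which share a step with *Gpam* and *Mogat1*, but the difference between isozymes was not tested.

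Of 9 genes tested that supply the pathway, 6 were called higher (12.5% of all genes were) and none lower, with a median log2 fold change of 0.78. *Gpd1l* (0.20), *Acsl4* (-0.33) and *Aqp7* (-0.41) did not pass. The count was 3 without SHMT2 fl/fl mouse 3 and with library size alone, where 805 and 539 of all genes were called higher. In addition, 2 genes were called lower without SHMT2 HKO mouse 3, where 3076 of all genes were. *Gpd1*, which makes glycerol 3-phosphate from a glycolytic intermediate, went from 302.5 ± 24.6 to 644 ± 75.4 CPM (SD, n = 3; log2 fold change 1.09, adjusted p = 0.00261 by edgeR). *Aqp9*, the glycerol channel of hepatocytes, rose by 0.94 (0.15 with ERCC scaling) and *Gk*, glycerol kinase, by 0.78 (0.13 with ERCC scaling). *Acsl1*, the major acyl-CoA synthetase of liver, stood at 390, 589 and 507 CPM across SHMT2 fl/fl mice against 912, 1493 and 1434 CPM across SHMT2 HKO mice (log2 fold change 1.37). *Gpd1*, *Aqp9* and *Acsl1* kept their calls in every fit that left out a mouse and with library size alone, and none of the 6 kept it with ERCC scaling, where *Acsl3* turned from 0.49 to -0.27. Of the others called, *Gk* lost its call without 1 of the 6 mice in turn, and *Acsl5* and *Acsl3* without 4.

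Among 15 genes tested that divert phosphatidic acid or diacylglycerol to other lipids, 3 rose, where 12.5% of all genes did, and the median log2 fold change was 0.02. The count was 1 without SHMT2 fl/fl mouse 2 or 3, where 861 and 805 of all genes were called higher. With library size alone 1 was called higher and 4 lower, where 539 and 4923 of 16089 genes were. The 3 that rose with TMM scaling were *Chpt1*, a cholinephosphotransferase that uses diacylglycerol for phosphatidylcholine (0.997, adjusted p = 0.00258 by edgeR), *Selenoi*, an ethanolaminephosphotransferase (0.51), and *Ptpmt1*, a mitochondrial phosphatase of cardiolipin synthesis (0.49). *Selenoi* kept its call in 4 and *Ptpmt1* in 2 of 6 fits that left out a mouse, and they turned to -0.18 and -0.21 with ERCC scaling. Of the 3 matched genes whose products act on lipins or GPATs, none passed edgeR's test (1 at an unadjusted p-value under 0.05, 1 by DESeq2 and none by limma-voom), and *Bscl2*, which encodes seipin, was nearest (0.51, adjusted p = 0.0593).

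Of 15 transcription factors, coactivators and sterol sensors of the pathway, 8 rose, where 12.5% of all genes did, with a median log2 fold change of 0.57. With library size alone 3 were called higher and 2 lower, where 539 and 4923 of 16089 genes were. With a mouse left out, 6 to 10 were called higher. *Scap* kept its call in 2 of 6 such fits and *Nr1h3*, *Cebpa* and *Insig2* in 5. *Mlxipl*, *Ppara*, *Insig1* and *Pparg* kept theirs in all 6. *Mlxipl*, which encodes the carbohydrate sensor ChREBP, had a mean of 173 ± 26.8 CPM in SHMT2 fl/fl and 369 ± 47.3 CPM in HKO livers (SD, n = 3; log2 fold change 1.09), *Ppara* rose by 1.10, *Insig1* by 1.27 and *Insig2* by 0.90. *Pparg*, a driver of lipid storage, was also called, at 18.7 ± 3.36 CPM in SHMT2 fl/fl and 34.4 ± 4.96 CPM in HKO livers (log2 fold change 0.88, adjusted p = 0.00725 by edgeR). *Srebf1*, a regulator of *Gpam*, did not pass (0.57, adjusted p = 0.0553), nor did *Ppargc1a* (-0.26, adjusted p = 0.5), a coactivator for *Lpin1*. With ERCC scaling none of the 8 kept its call, the log2 fold change was 0.31 for *Mlxipl* and 0.22 for *Pparg*, and that of *Nr1h3* (0.73) and *Scap* (0.55) turned to -0.07 and -0.24.

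Of 8 PPARγ targets known from fatty liver, 3 rose and 1 fell, where 12.5% and 16.5% of all genes did, with a median log2 fold change of 0.67. The number called higher was 6 without SHMT2 HKO mouse 1, and 2 without SHMT2 fl/fl mouse 2 or 3 or SHMT2 HKO mouse 2. *Cidea*, a lipid droplet protein, had 2.42, 2.71 and 2.09 CPM across SHMT2 fl/fl mice against 26.6, 67.8 and 43.6 CPM across SHMT2 HKO mice (log2 fold change 4.26, adjusted p = 0.000763 by edgeR; 3.56 with ERCC scaling). *G0s2*, an inhibitor of triglyceride lipolysis, rose by 1.56 and *Plin2*, a lipid droplet coat protein, by 0.83, and neither kept its call with ERCC scaling (0.84 and 0.15), while *Plin2* kept its call in 3 of 6 fits that left out a mouse. *Lpl*, lipoprotein lipase, fell by 1.65 on the log2 scale, and *Lpl* and *Cidea* were called with ERCC scaling too.

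**Figure D5:**
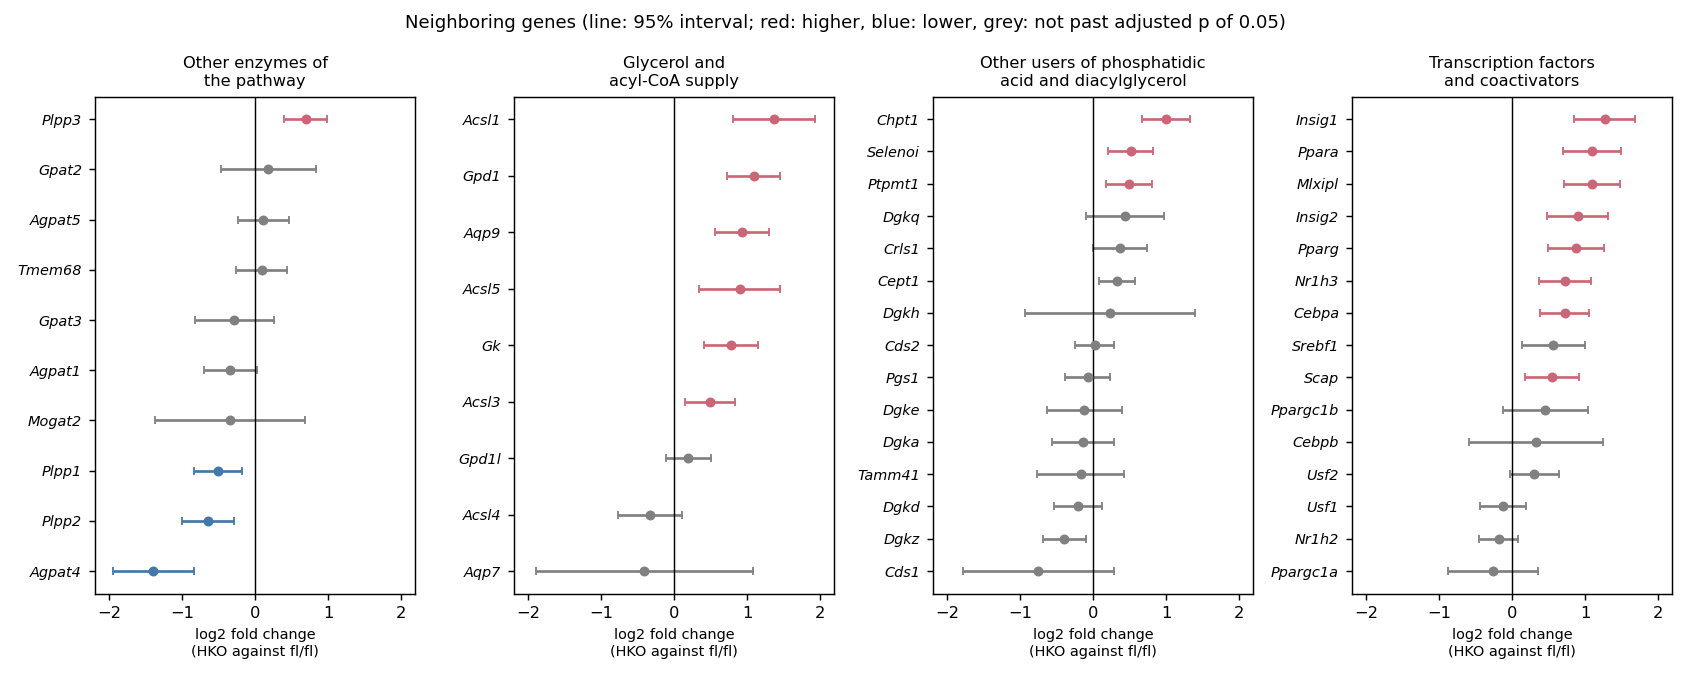
Log2 fold changes with 95% intervals (TMM scaling) of genes in 4 lists next to the triglyceride synthesis enzymes. Red marks genes called higher, blue lower and grey those not past an adjusted p-value of 0.05; 6 supply genes and 8 transcription factors and sensors are red, 1 other enzyme and 3 other users are red, and with ERCC scaling no red gene kept its call and 5 of them (*Acsl3*, *Selenoi*, *Ptpmt1*, *Nr1h3*, *Scap*) turned below 0.

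Markers of liver cell types also differed between the genotypes, and bulk RNA cannot tell fewer cells of a type from less RNA per cell. Over all genes tested, 12.5% were called higher and 16.5% lower, and the marker counts below stand beside these shares. Of 9 hepatocyte markers 4 rose (median log2 fold change 0.63), and their summed level was 53900 to 65600 CPM in SHMT2 fl/fl livers and 67600 to 99000 CPM in those of SHMT2 HKO mice. The number of hepatocyte markers called higher was 0 without any SHMT2 fl/fl mouse in turn or without SHMT2 HKO mouse 2, 2 without SHMT2 HKO mouse 1, 6 without SHMT2 HKO mouse 3 and 0 with library size alone. Scaled to these 9 genes, an alternative chosen after seeing the data, none of the 10 enzymes was called higher (2 at an unadjusted p-value under 0.05) and *Lpin3* was called lower (-1.01, adjusted p = 0.0215 by edgeR). Over all genes, 431 of 16089 were called higher with this scaling and 4565 lower. The log2 fold change of *Mogat1* was then 1.45 (adjusted p = 0.0552), *Gpam* 0.46 and *Dgat2* 0.37. All 6 cholangiocyte markers fell (median -2.97, summed level 956 to 1190 against 128 to 246 CPM), as did 4 of 6 lymphocyte markers (35.9 to 55.4 against 13.5 to 22.8 CPM), 4 of 7 stellate cell markers with 1 rising (1200 to 1280 against 321 to 807 CPM) and 4 of 8 macrophage markers with 2 rising (513 to 680 against 317 to 369 CPM). The number of stellate cell markers called lower was 2 without SHMT2 fl/fl mouse 2 or 3 or SHMT2 HKO mouse 2. Of 6 endothelial markers 3 rose (164 to 191 against 239 to 279 CPM). With ERCC scaling no hepatocyte or endothelial marker was called higher, the 4 hepatocyte markers that had risen (*Ttr*, *Apob*, *Serpina1b*, *Asgr1*) had log2 fold changes of -0.06, -0.07, -0.02 and -0.0059, 1 hepatocyte marker (*Tat*, -1.34) was called lower, and all 6 cholangiocyte markers were still called lower. The part of these shifts in the change of any enzyme was not tested.

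Adipocytes are rich in several of these enzymes, so their markers were read in each liver. Of the 6 adipocyte markers 2 were tested and 1 (*Cfd*) rose, where 12.5% of all genes did. *Adipoq*, *Plin1*, *Lep* and *Retn* had at most 5 counts in each of 5 libraries and did not pass the filter. SHMT2 HKO mouse 1 was the exception, with 2.67 CPM of *Adipoq*, 4.24 of *Plin1*, 0.891 of *Retn* and 0.297 of *Lep*. The sum of all 6 adipocyte markers was 6.73 to 12.6 CPM in SHMT2 fl/fl livers and 16.8 to 115 CPM in those of SHMT2 HKO mice, to which *Cfd* gave 91.1, 62.2 and 10.9 CPM in SHMT2 HKO mice 1, 2 and 3. Without SHMT2 HKO mouse 1 the log2 fold changes were larger for *Gpam* (1.16), *Agpat2* (0.76), *Agpat3* (0.58), *Dgat2* (0.87) and *Mogat1* (2.33), and all 5 stayed called. With all mice they were 0.90, 0.73, 0.49, 0.86 and 1.96 in the same order. SHMT2 HKO mouse 1 was the lowest of its group for 7 of the 10 enzymes. The part of adipocyte RNA in the change of any enzyme was not tested.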

How the data were processed

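Liver RNA of 3 SHMT2 fl/fl and 3 SHMT2 HKO mice was sequenced. The values deposited by the authors are raw counts per gene. The authors trimmed reads with Trimmomatic 0.36 and aligned them with STAR 2.5.2b to GRCm38 with the ERCC sequences, and the submitters' processing notes also name featureCounts of Subread 1.5.2. The 92 ERCC RNAs entered neither library sizes nor tests. Gene names, positions and exon lengths came from GENCODE M21 (GRCm38), in which 345 of 49671 gene entries have no name (0.0416% of counts).

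Genes were filtered with filterByExpr, scaled by TMM and tested by the quasi-likelihood F test of edgeR 4.0.16 (R 4.3.3, two-sided, robust), with Benjamini-Hochberg adjustment over 16089 genes. Adjusted p-values are from this test unless another tool is named. Standard errors and 95% intervals were derived from its F statistic. Ratios used counts plus 0.5 and exact permutation over all 10 splits of the mice. Alternatives were DESeq2 1.42.0, limma-voom (limma 3.58.1), library size, upper-quartile and ERCC scaling, other filters, dispersions without robust estimation, a replicate block and each mouse left out. Scaling to 9 hepatocyte markers was added after seeing the data. The code was tested on simulated counts. The members, lists and tests were chosen with earlier results of these data known. Named are *Shmt2*, the 10 enzymes, isozymes of their steps, and from each list up to 4 called genes with the largest change; other genes named were chosen after their values were seen. Labels give no separate batch. Sample pairs of a genotype differed beyond sampling noise (chi-square per gene 26.9 to 153) and counted as separate mice. The depth limits single counts such as those of *Mogat1* most.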

Additional observations from a re-analysis of the deposited data

How the results depend on the processing

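The number of triglyceride synthesis enzymes called higher was 5 with edgeR after TMM scaling. It was 0 with library size alone, with ERCC scaling and with hepatocyte marker scaling (2, 1 and 2 at an unadjusted p-value under 0.05), 2 without a filter on low counts, 4 with limma-voom, upper-quartile scaling and at least 10 counts in every sample, and 0 to 6 when 1 mouse was left out, lowest without SHMT2 fl/fl mouse 1 or 3. The number called lower was 0, and 1 (*Lpin3*) with limma-voom, library size, upper-quartile and hepatocyte marker scaling and with at least 10 counts in every sample, and 0 to 1 with a mouse left out. Calls over all genes, higher or lower, numbered 4663 of 16089, 2866 with ERCC scaling, and 2426 to 5597 with a mouse left out. Those called higher were 2012, and 539, 107 and 431 with library size, ERCC and hepatocyte marker scaling. The 13 other lists hold 111 matched genes, some not tested, and pool pathway genes with cell type markers. Their calls, higher or lower, numbered 54, 26 with ERCC scaling, and 36 to 64 with a mouse left out. The sign turned for *Dgat1* with library size alone (-0.16), hepatocyte marker scaling (-0.21) and ERCC scaling (-0.46), and with ERCC scaling also for *Gpat4* (-0.25), *Agpat2* (-0.0905), *Agpat3* (-0.19) and *Lpin2* (-0.0267). These scalings move the median of all genes by -0.42, -0.47 and -0.72. The *Gpam* to *Agpat2* ratio ran from -0.19 to 0.47 with a mouse left out. *Shmt2* kept its call with each mouse left out (-2.16 to -1.92).

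Mice with the same number did not deviate together (correlations -0.0305, 0.0512 and -0.0992), and those with different numbers ran from -0.0817 to 0.108. The numbers were therefore not treated as pairs, though so few mice cannot exclude a pairing. With a replicate block, 3 of the 10 enzymes were called higher, and *Agpat2* (adjusted p = 0.0564) and *Agpat3* (0.0709) were not. The *Dgat2* to *Dgat1* and *Lpin3* to *Lpin2* differences ran from 0.48 to 0.69 and from -1.11 to -0.77 with a mouse left out.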
